A study of Mus musculus with 7 samples.

Results

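Among the 7 *Slc35d* and *Slc35e* genes of primary mouse hepatocytes, the signal of *Slc35e1* was 2.95-fold lower and that of *Slc35d2* 1.99-fold higher 24 h after transfection with miR-709 than with the control miRNA Cel-239b. The other five, *Slc35d1*, *Slc35d3*, *Slc35e2*, *Slc35e3* and *Slc35e4*, lay between 1.28-fold lower and 1.16-fold higher. The genes were taken by symbol, as every probe set on the array that was paired with 1 of the 7 symbols alone. Each symbol had 1 such probe set and none was shared with another gene, so that all 7 were measured, of 19938 genes in all. The family was chosen by the log2 differences of *Slc35e1* and *Slc35d2*, which were opposite on these same arrays, and their values are therefore given as a description, with no test. Their relatives were taken by name.

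Hepatocytes, which carry out most of the liver's metabolism, were isolated from male C57BL/6J mice by collagenase digestion and a Percoll gradient that separates them from non-parenchymal cells. They received 1 µg of a miR-709 mimic (4 arrays, replicates A to D) or of Cel-239b, a worm miRNA (3 arrays, replicates B to D), and total RNA was taken after 24 h. All cells were cultured with insulin, dexamethasone and fetal bovine serum, and the strain and the transfection procedure were common to the groups. Whether the replicates came from separate mice or isolations is not given in the sources used here, so a p-value here reflects only how far arrays of 1 treatment spread, which may be technical. The values are the log2 signals of Affymetrix Mouse Gene 1.0 ST arrays that the authors deposited after RMA, a procedure that corrects the background, equalises the distributions of the arrays and summarises the probes of each set.

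Many SLC35 proteins are membrane carriers of the endoplasmic reticulum and the Golgi apparatus. Sugars are activated in the cytosol as nucleotide sugars, such as UDP-glucuronic acid or UDP-N-acetylglucosamine, whereas most glycosyltransferases work inside these organelles, and the carriers bring the activated sugar in, in exchange for a nucleoside monophosphate. In the liver the imported sugars serve the glycosylation of secreted proteins, the growth of glycosaminoglycan chains on proteoglycans, and the glucuronidation of bilirubin and drugs. In the *Slc35d* branch, *Slc35d1* and *Slc35d2* encode carriers of UDP-sugars with known substrates. The proteins of the *Slc35e* branch are related by sequence and their substrates are not established. The name nucleotide sugar transporter is thus a family name for *Slc35e*.

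Hepatocyte markers were bright on the arrays, but markers of other liver cells were not all dim. The highest mean log2 signal was 10.67 among Kupffer cell or leukocyte markers and 8.88 among cholangiocyte markers. It was 6.10 among stellate and 5.65 among endothelial cell markers. These are the brightest marker of each list. A mean log2 signal over 6 was found in 1 of 6 Kupffer cell or leukocyte markers and 2 of 5 cholangiocyte markers. It was found in 1 of 6 stellate and 0 of 6 endothelial cell markers. All 10 hepatocyte markers had mean log2 signals from 9.29 to 13.47, whereas the 19 genes of other tissues that were measured, such as *Gip* and *Crygb*, had 2.71 to 5.58, a range that shows where probe sets without their transcript lie on these arrays. Of 10 measured interferon response genes, limma called 0 (2 with an unadjusted p under 0.05, 0 by limma-trend and 0 by the methods' t-test), but their mean lay 1.08 and 1.07 (log2) above the Cel-239b mean on miR-709 replicates C and D, against -0.18 on A and -0.09 on B. Results are therefore also given without C and D. The Cel-239b replicates B, C and D had -0.18, -0.07 and 0.26 for the same interferon genes. Of the hepatocyte markers, limma called *Cps1*, *Tat* and *Hnf4a* higher with miR-709 (3 called by limma-trend and 1 by the methods' t-test). The summed linear signals of all 10 were 58080 to 59242 on Cel-239b arrays and 58994 to 63048 on miR-709 arrays, which overlapped. Of 5 cholangiocyte markers limma called *Krt19* lower (1 called by limma-trend and 0 by the methods' t-test). The summed linear signals of all 5 were 1023 to 1172 on Cel-239b arrays and 469 to 783 on miR-709 arrays. Of 6 stellate, 6 endothelial and 6 Kupffer cell or leukocyte markers none was called by limma, limma-trend or the methods' t-test (1, 0 and 0 with an unadjusted p under 0.05). The part of these markers in the changes of the *Slc35* genes was not tested, and in RNA of whole cultures fewer cells of a type and less RNA per cell cannot be told apart.

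**Figure D1:**
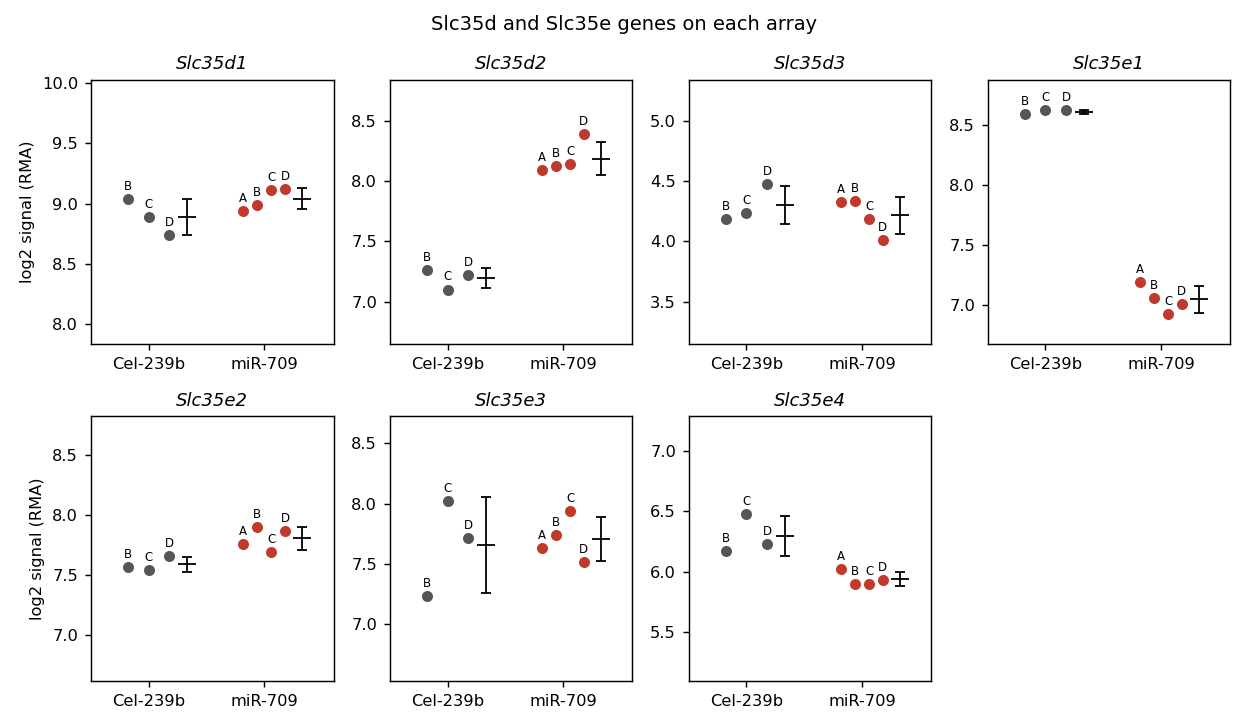
Log2 signal (RMA) of the 7 genes on each array, with Cel-239b in grey (replicates B, C and D) and miR-709 in red (replicates A to D), and the mean and SD beside the points. Every panel spans the same log2 range, with its own position and an axis that does not start at 0. *Slc35e1* drops from 8.61 to 7.05 and *Slc35d2* climbs from 7.19 to 8.19 with a wide gap between the treatments, while the arrays of *Slc35d1*, *Slc35d3* and *Slc35e3* overlap.

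Of the UDP-sugar carriers, *Slc35d2* encodes a carrier of UDP-N-acetylglucosamine in the Golgi apparatus, related to the fly gene fringe connection. Its log2 signal was 7.26, 7.10 and 7.22 on the Cel-239b replicates B, C and D, and 8.09, 8.13, 8.14 and 8.39 on the miR-709 replicates A, B, C and D. The treatments did not overlap, and the lowest miR-709 array lay 0.83 above the highest Cel-239b array. The means were 7.19 ± 0.08 (SD, n = 3) and 8.19 ± 0.14 (SD, n = 4), a log2 difference of 0.99 (standard error 0.08, 95% interval 0.81 to 1.18). By absolute size this was the change of rank 42 among the 19938 genes. Without miR-709 replicates C and D it was 0.92.

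*Slc35d1* is the closest relative with a known role, a carrier of UDP-glucuronic acid and UDP-N-acetylgalactosamine in the endoplasmic reticulum that cartilage needs for chondroitin sulfate. It had 9.04, 8.89 and 8.74 on the Cel-239b replicates B, C and D and 8.94, 8.99, 9.11 and 9.12 on the miR-709 replicates A to D. The groups overlapped, since the highest Cel-239b array lay above A and B of miR-709. By limma the log2 difference was 0.15 (standard error 0.08, adjusted p = 0.444), and its 95% interval, -0.04 to 0.34, reached up to 1.26-fold higher.

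*Slc35d3*, known from a mouse mutant with defective platelet granules, was dim in hepatocytes. With a mean log2 signal of 4.25 it lay inside the range of the genes of other tissues, so that a transcript cannot be told from background there and a change could hardly be seen. The Cel-239b replicates had 4.19, 4.24 and 4.48 and the miR-709 replicates 4.33, 4.34, 4.19 and 4.01, with overlap. With limma the log2 difference was -0.09 (standard error 0.10, adjusted p = 0.753), which turned to 0.03 without miR-709 replicates C and D and to 0.0025 without Cel-239b replicate D.

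In the *Slc35e* branch, *Slc35e1* had 8.59, 8.62 and 8.62 on the Cel-239b replicates B, C and D, which differed by no more than 0.03. On the miR-709 replicates A, B, C and D it had 7.19, 7.06, 6.93 and 7.01. All 4 arrays lay far below the controls, with a gap of 1.40 between the nearest arrays of the treatments. The means were 8.61 ± 0.02 (SD, n = 3) and 7.05 ± 0.11 (SD, n = 4), a log2 difference of -1.56 (standard error 0.07, 95% interval -1.72 to -1.41), the change of rank 12 by absolute size. After transfection with miR-709 the signal was still above the range of the genes of other tissues. Without miR-709 replicates C and D the difference was -1.48 on the log2 scale.

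*Slc35e4* was the relative with the largest change. It had 6.17, 6.48 and 6.23 on the Cel-239b replicates and 6.02, 5.90, 5.90 and 5.93 on the miR-709 replicates A to D, so that the highest miR-709 array lay 0.15 below the lowest Cel-239b array. The log2 difference was -0.36 (standard error 0.08, 95% interval -0.54 to -0.17), or 1.28-fold lower, with an adjusted p = 0.0480 from limma just under the threshold of 0.05. The call was lost when any single array was left out, with an adjusted p of 0.0556 without Cel-239b replicate B, 0.117 without C and 0.0787 without D, and of 0.0790, 0.132, 0.135 and 0.132 without miR-709 replicates A, B, C and D. The methods' t-test gave an adjusted p = 0.204.

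*Slc35e2* pointed the other way. Its Cel-239b replicates had 7.57, 7.54 and 7.66 and its miR-709 replicates 7.76, 7.90, 7.69 and 7.87, which did not overlap but came within 0.03 of each other. The log2 difference of 0.21 (standard error 0.07, 95% interval 0.06 to 0.37) did not pass the test over all genes (adjusted p = 0.164 from limma), nor in any alternative, where the adjusted p ran from 0.0960 to 0.388.

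*Slc35e3* varied most between arrays of the same treatment. The Cel-239b replicates B, C and D had 7.23, 8.02 and 7.71, a range of 0.79, and the miR-709 replicates A to D had 7.63, 7.74, 7.94 and 7.51, all inside that range. Its residual SD of 0.29 was higher than that of 99.1% of all genes, against a median of 0.10. The log2 difference was 0.05 (standard error 0.17, 95% interval -0.33 to 0.43, adjusted p = 0.924 from limma) and turned to -0.16 when Cel-239b array B was left out and to -0.03 when miR-709 array C was. A change of up to 1.35-fold upward or 1.26-fold downward lay within that interval.

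Over the 7 genes, limma called 2 lower and 1 higher at an adjusted p under 0.05 in miR-709 arrays, where 1.47% and 1.81% of all 19938 genes were lower and higher (3.28% in either direction). Since the family was picked for *Slc35e1* and *Slc35d2*, nothing is read from that count. Of the 5 relatives 1 was lower, *Slc35e4*, and 4 did not pass. The arrays of the treatments did not overlap in 4 of the 7 genes, a count that includes the chosen pair, and in 12.3% of all genes. Among the 5 relatives they did not overlap in 2, *Slc35e2* and *Slc35e4*. The median log2 difference was 0.05 over the 7 genes and 0.01 over all genes. The number of genes called among all 19938 fell from 654 to 418 or 361 when Cel-239b array B or C was left out, to 419 or 398 when miR-709 array B or D was, and to 168 without C and D of miR-709 together.

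**Figure D2:**
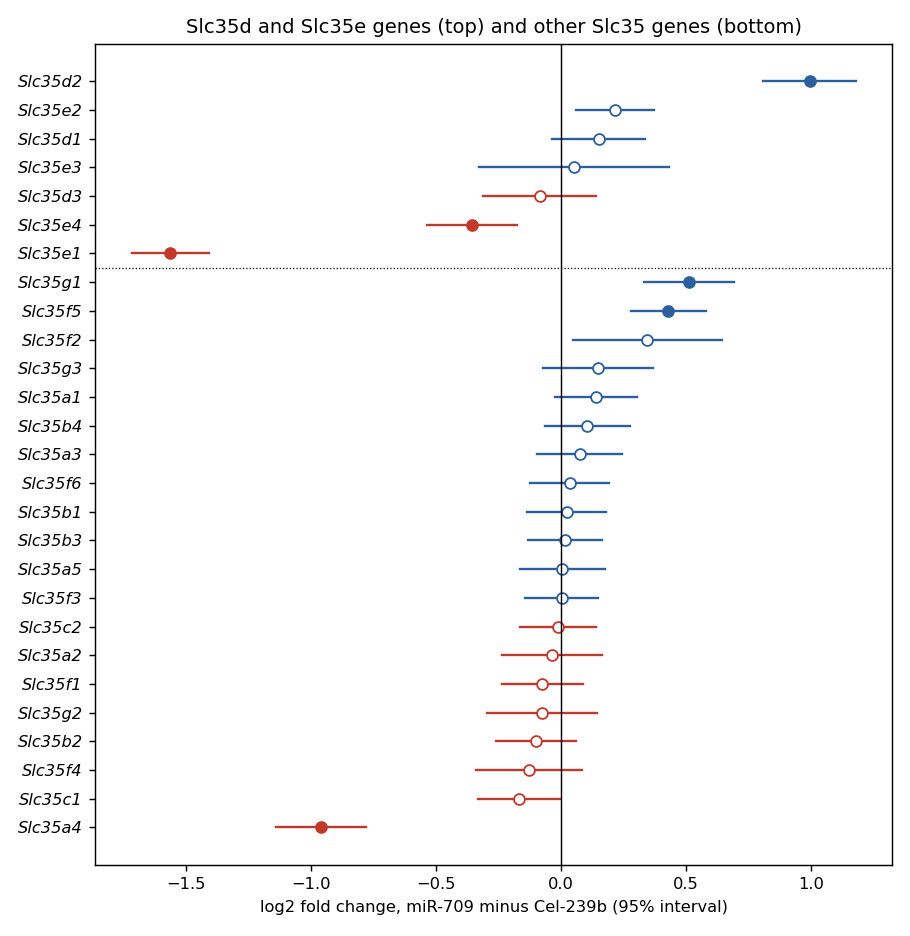
Log2 fold change, miR-709 minus Cel-239b, of the 7 *Slc35d* and *Slc35e* genes (above the dotted line) and of 20 other *Slc35* genes (below it), with the 95% interval from limma. Red marks values below 0 and blue above 0, and filled points have an adjusted p under 0.05. *Slc35e1* at -1.56 and *Slc35d2* at 0.99 lie outermost, and most other intervals cross 0.

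The remaining branches, *Slc35a*, *Slc35b*, *Slc35c*, *Slc35f* and *Slc35g*, show how the other genes of the family stood. Of these 20 genes limma called 1 lower and 2 higher and left 17 uncalled (1.47% and 1.81% of all genes were lower and higher), with a median log2 difference of 0.01. *Slc35a4*, of the branch that includes the carriers of CMP-sialic acid and UDP-galactose, went from 9.05 ± 0.13 (SD, n = 3) to 8.09 ± 0.09 (SD, n = 4), a log2 difference of -0.96 (standard error 0.08, adjusted p = 2.9e-04 from limma). The Cel-239b replicates had 8.97, 8.97 and 9.20 and the miR-709 replicates 8.08, 8.00, 8.22 and 8.05 from A to D, well apart. *Slc35g1* was higher by 0.51 (adjusted p = 0.00803) and *Slc35f5* by 0.43 (adjusted p = 0.00804), and without miR-709 replicates C and D together they had 0.54 and 0.36 and were no longer called. *Slc35f2*, whose signal lay within the range of the genes of other tissues, had a log2 difference of 0.35 (standard error 0.13, adjusted p = 0.252), and 0.16 without Cel-239b replicate C. The carriers with well known substrates, *Slc35a1* for CMP-sialic acid (0.14), *Slc35a2* for UDP-galactose (-0.04), *Slc35a3* for UDP-N-acetylglucosamine (0.07) and *Slc35c1* for GDP-fucose (-0.17), did not pass, and nor did *Slc35b2* (-0.10) and *Slc35b3* (0.02), which carry the activated sulfate PAPS.

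The cargo of the carriers is made by the enzymes of nucleotide sugar synthesis. Of 28 measured genes 1 was called lower, 1 was called higher and 26 were not called (3.28% of all genes were called), with a median log2 difference of 0.07. *Uap1l1*, a relative of the enzyme that forms UDP-N-acetylglucosamine, had 8.70, 8.89 and 9.04 on the Cel-239b replicates and 9.49, 9.48, 9.45 and 9.32 on the miR-709 replicates A to D, without overlap. It was higher by 0.56 (standard error 0.09, adjusted p = 0.00751 from limma). *Gfpt1*, which starts the hexosamine pathway toward UDP-N-acetylglucosamine, was lower by a log2 difference of -0.32 (standard error 0.07, adjusted p = 0.0314), and kept its call only without miR-709 replicate C (adjusted p = 0.0383) among the 7 single arrays left out, with 0.0564 to 0.111 for the other six (Cel-239b B, C and D and miR-709 A, B and D). *Ugdh*, which makes UDP-glucuronic acid, had 0.30 (standard error 0.08, adjusted p = 0.0723), *Fpgt* of the fucose salvage pathway 0.39 (standard error 0.10, adjusted p = 0.0763) and *Renbp*, an N-acetylglucosamine epimerase, 0.34 (standard error 0.10, adjusted p = 0.151). The count of higher genes in this list was 2 without Cel-239b replicate B. With miR-709 replicates C and D both left out, *Uap1l1* had 0.61 and *Gfpt1* -0.34 and neither was called.

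**Figure D3:**
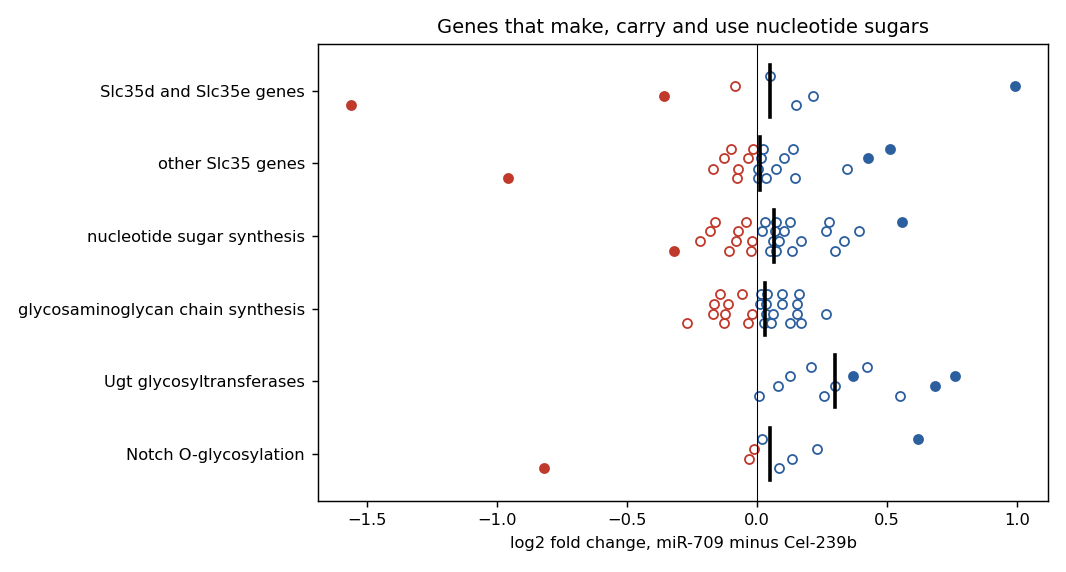
Log2 fold change, miR-709 minus Cel-239b, of every measured gene of 6 lists, filled where the adjusted p from limma is under 0.05, in red below 0 and blue above 0, with the median of the list as a black bar. The height of a point within its row has no meaning. The 26 genes of glycosaminoglycan chain synthesis hold no filled point, and all 11 Ugt genes lie above 0.

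Several groups of enzymes use sugars that these carriers import. For glycosaminoglycan chains, the route that depends on *Slc35d1* in cartilage, 26 genes were measured. A mean log2 signal over 6 was found in 16 of them, and in the dimmest a change could hardly be seen. At an unadjusted p under 0.05 from limma there were 3, and limma, limma-trend and the methods' t-test each called 0 of the 26 genes. Their log2 differences ran from -0.27 for *Chsy1*, a chondroitin synthase (6.42, 6.47 and 6.41 against 6.18, 6.36, 6.19 and 5.93, adjusted p = 0.199), to 0.27 for *B3galt6*, which adds the third sugar of the linker region (adjusted p = 0.123) and whose signals lay within the range of the genes of other tissues. *Glce*, an epimerase of heparan sulfate, had 0.17 and *Chpf*, a partner of chondroitin polymerases, had -0.17.

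The UDP-glucuronosyltransferases take UDP-glucuronic acid, a cargo of *Slc35d1*, to conjugate drugs and bilirubin in the endoplasmic reticulum. The *Ugt* list also held *Ugt3a1*, *Ugt3a2* and *Ugt8a*, whose enzymes use other UDP-sugars. Of the 11 measured *Ugt* genes 3 were called higher and 8 were not called, where 1.81% of all genes were higher, and of the 8 *Ugt2* genes among them 2 were called higher. The median log2 difference was 0.30, against 0.01 over all genes, and all 11 values lay above 0, as did 10946 of the 19938 genes. *Ugt2b35* had 8.11, 8.12 and 8.09 on the Cel-239b replicates and 8.66, 8.66, 9.12 and 9.03 on the miR-709 replicates A to D, higher by 0.76 (standard error 0.12, adjusted p = 0.00751 from limma). *Ugt3a1* was higher by 0.68 (standard error 0.09, adjusted p = 0.00413) and *Ugt2b1* by 0.37 (standard error 0.07, adjusted p = 0.0229), while *Ugt2b5* had 0.55 (standard error 0.14, adjusted p = 0.0791). *Ugt2b1* lost its call without Cel-239b replicate C or D or miR-709 replicate A or D (adjusted p of 0.0514 to 0.0887). Without miR-709 replicates C and D together only *Ugt2b35* of the list was called, at a log2 difference of 0.55, while *Ugt3a1* had 0.63 and *Ugt2b1* 0.36. The signal of *Ugt2b35* was higher on C and D (9.12 and 9.03), the arrays with higher interferon genes, than on A and B (8.66 each). A link between *Ugt2b35* and the interferon genes was not tested. The transferases of the *Ugt1a* cluster share exons and had no probe set of their own used here, and close *Ugt2b* genes may share probes.

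The transfer of O-linked sugars to Notch includes a fringe step that uses UDP-N-acetylglucosamine, the cargo of *Slc35d2*. The list for this transfer held 8 measured genes and need not be complete. Of these 1 was called in each direction and 6 were not called (3.28% of all genes were called). *Pofut1*, which adds the first fucose, had 6.39, 6.68 and 6.67 on the Cel-239b replicates and 5.55, 5.87, 5.90 and 5.73 on the miR-709 replicates A to D, lower by a log2 difference of -0.82 (standard error 0.10, adjusted p = 0.00275 from limma). *Poglut1*, which adds O-glucose, was higher by 0.62 (standard error 0.10, adjusted p = 0.0108), and had an adjusted p = 0.0539 without Cel-239b replicate B. Of the fringe genes themselves, *Rfng* (0.13) did not pass the test, and *Lfng* (-0.01) and *Mfng* (0.02) lay within the range of the genes of other tissues. *Gxylt1* had 0.23 and did not pass, and this was 0.10 with Cel-239b replicate C left out and 0.12 with miR-709 replicate C left out. Without miR-709 replicates C and D together *Pofut1* had -0.87 and *Poglut1* 0.53 and neither was called. With the methods' t-test *Slc35a4* kept its call, while *Slc35g1*, *Slc35f5*, *Uap1l1*, *Gfpt1*, *Ugt2b35*, *Ugt3a1*, *Ugt2b1*, *Pofut1* and *Poglut1* lost theirs (adjusted p of 0.0642 to 0.132).

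To show which genes followed the same course over the 7 arrays, all 8754 genes with a group mean of at least 6 were ranked by the Pearson correlation of their log2 signals with those of each of the pair. The points share the treatment, which sets most of each correlation, so the values are descriptive. Most like *Slc35e1* were *Myo1d*, a class I myosin (r = 0.997), *Nop16*, a nucleolar protein (r = 0.997), *Pfas* of purine synthesis (r = 0.997), *Nucks1*, a chromatin protein (r = 0.995), and *Ajuba*, an adaptor at cell contacts (r = 0.995). Their log2 differences were -1.21, -1.44, -1.18, -0.97 and -0.98, each smaller than that of *Slc35e1*. Most like *Slc35d2* were *Rbm41*, an RNA-binding protein (r = 0.996), *Rnf14*, a ubiquitin ligase (r = 0.991), *Tkfc*, the triokinase of fructose metabolism (r = 0.991), *Gnpat*, which starts ether lipid synthesis in peroxisomes (r = 0.990), and *Lrrc28* (r = 0.989). Their differences of 0.40, 0.59, 0.32, 0.38 and 0.38 were also smaller than that of *Slc35d2*. No other *Slc35* gene was among these 10.

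**Figure D4:**
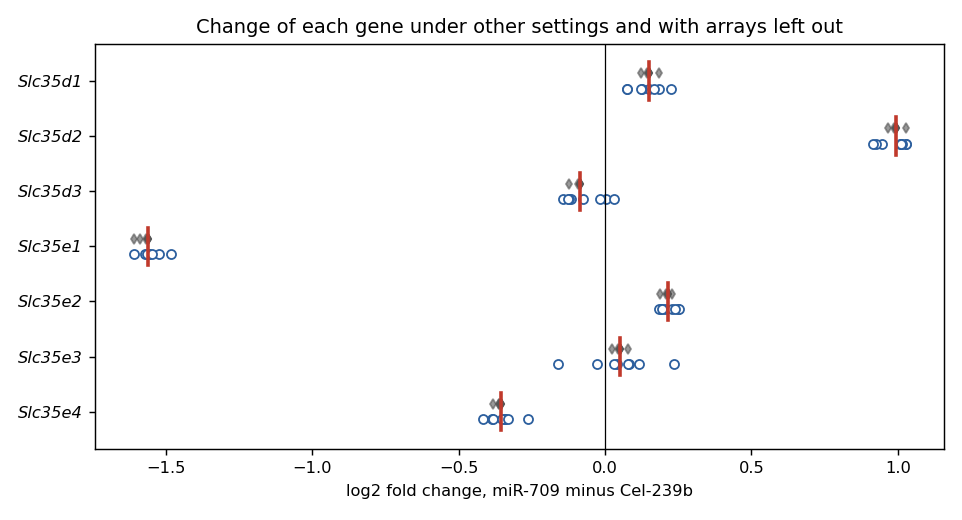
Log2 fold change of each of the 7 genes as reported (red bar), under 7 or 8 other ways of processing or testing (grey diamonds) and with 1 array or the miR-709 replicates C and D left out (open blue circles). Diamonds on the red bar include settings that cannot change the value of a gene with 1 probe set. *Slc35e1* stays between -1.61 and -1.48 and *Slc35d2* between 0.92 and 1.03, while *Slc35d3* and *Slc35e3* cross 0.

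Over all alternatives *Slc35e1* ran from -1.61 to -1.48 and *Slc35d2* from 0.92 to 1.03 on the log2 scale. *Slc35d1* ran from 0.07 to 0.22, *Slc35e2* from 0.18 to 0.25 and *Slc35e4* from -0.42 to -0.26, and none of these changed sign. Only cyclic loess, median centring, the replicate block and the fits with arrays left out could move these values. The spread of the array values of *Slc35e1* around its group means (residual SD 0.085) was lower than that of the median gene, and those of *Slc35d1* and *Slc35d2* (0.12 each) were slightly above it.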

How the data were processed

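Affymetrix Mouse Gene 1.0 ST arrays of 4 miR-709 and 3 Cel-239b replicates were used, 1 array each. The authors' deposited log2 signals were made in Partek with RMA, in versions not given in the sources used here. They ran from 1.92 to 14.08, with array medians of 5.04 to 5.07. No arrays were identical. The number of arrays limits the precision (median standard error 0.08).

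Of 28853 probe sets, 21789 had 1 gene symbol in the platform annotation, 1621 several and 5443 none. Symbols were updated through gene numbers (21698 matched, GRCm38.p6 annotation). The brightest probe set of a gene was kept, which gave 19938 genes. Treatments were compared with limma 3.58.1 in R 4.3.3, 2-sided, with Benjamini-Hochberg adjustment over all genes, and called at an adjusted p under 0.05. The methods' 1-way ANOVA is called the methods' t-test. Its p-values were given the same adjustment and threshold here. The paper states no such adjustment and used another threshold, so these counts are not those of the paper. The procedure was tested on simulated data.

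The genes and lists were chosen with earlier results of these data known. Named were the 7 genes, up to 4 genes of each list by size of change (called first), and the 5 genes most correlated with *Slc35e1* and with *Slc35d2*. Carriers and enzymes named for their substrates (*Ugdh*, *Slc35a1* to *Slc35a3*, *Slc35b2*, *Slc35b3*, *Slc35c1*, *Lfng* and *Mfng*) and the called markers were added after their values were seen. Alternatives tried were limma-trend, the methods' t-test, averaged probe sets per gene, all probe sets, a mean log2 signal of at least 5, cyclic loess, median centring, the replicate letter as a block, each array left out, and miR-709 replicates C and D left out together, which was chosen after seeing the data. No sequence of miR-709 or of the proteins is shown.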

Additional observations from a re-analysis of the deposited data

Results flagged for a closer look

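*Slc35d2* on miR-709 replicate D stood apart from the other miR-709 arrays. Its log2 signal was 8.39 against 8.09 to 8.14 on A, B and C, and the gap to the nearest array made up 0.833 of the range of the 4 arrays, above Dixon's 95% critical value for 4 values. Chance alone marks about 1 group in 20, and 27 genes were examined this way, of which this was the only one above the critical value. Without replicate D the log2 difference of *Slc35d2* was 0.93.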

How the results depend on the processing

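*Slc35e1* and *Slc35d2* moved by less than their residual SD in all 16 alternatives. For a gene with 1 probe set, limma-trend, the methods' t-test, averaged or all probe sets and the signal filter cannot change the log2 difference. The replicate block gave *Slc35e1* and *Slc35d2* the same differences as leaving out miR-709 replicate A, -1.61 and 1.03. The call of *Slc35e4* was lost, with an adjusted p above 0.05, in 12 of 16 alternatives. In these its log2 difference was -0.36 by limma-trend, the methods' t-test and all probe sets, and -0.38 with the replicate block. It was -0.33 without miR-709 C and D, and -0.42 to -0.26 with 1 array left out. *Slc35d3* was 0.032 without miR-709 C and D, and -0.14 to 0.0025 with 1 array left out. *Slc35e3* was -0.16 to 0.23 with 1 array left out. Lower and higher genes numbered 113 and 113 by the methods' t-test at an adjusted p under 0.05. They numbered 92 and 76 without miR-709 C and D, and 181 to 244 and 180 to 294 with 1 array left out. Arrays with the same replicate letter shared little of their deviations from the group means (correlations 0.019, 0.017 and 0.046 for B, C and D). C and D of miR-709 correlated best with their own letter. Whether a letter marks a shared isolation cannot be told from so few arrays. With the replicate block, in which array A carries no weight, 180 genes were higher, 221 were lower and 0 of the nucleotide sugar synthesis list were called either way, *Ugt2b1* lost its call (adjusted p = 0.0826) and *Ugt2b5* gained one (adjusted p = 0.0345). In the synthesis list the lower count was 0 by the methods' t-test and without miR-709 C and D and 0 to 1 with 1 array left out, and the higher count 2 by limma-trend, 3 among genes with a mean log2 signal of 5 or more, 0 by the methods' t-test and without miR-709 C and D, and 1 to 2 with 1 array left out. By the methods' t-test and without miR-709 C and D the other *Slc35* genes had 0 higher, and the Notch list 0 lower and 0 higher (0 to 1 higher with 1 array left out). The *Ugt* list had 0 higher by the methods' t-test and 1 without miR-709 C and D. Of 299 values of 20 list genes under alternatives, 263 kept their direction and call, 31 lost the call, 5 gained it and 0 turned. After cyclic loess 324 genes were higher and 328 lower. Dim probe sets such as *Slc35d3* limit what can be seen.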

Other observations

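The genes next to each *Slc35d* and *Slc35e* gene were looked up in the GRCm38.p6 annotation, taking the 3 nearest measured protein-coding genes on either side. This was added after the values were known. Of these 42 neighbours 5 were called by limma, against 3.28% of all genes. They were *Smim7*, 2 places from *Slc35e1* (log2 difference -0.43, adjusted p = 0.00800), *Habp4*, 2 places from *Slc35d2* (0.45, adjusted p = 0.00673), *Mier1* near *Slc35d1* (0.31, adjusted p = 0.0459), *Map3k5* near *Slc35d3* (0.31, adjusted p = 0.0300) and *Rap1b* near *Slc35e3* (0.44, adjusted p = 0.0117). *Med26* and *Cherp*, the closest measured genes on either side of *Slc35e1*, had 0.04 and 0.17, and *Hsd17b3* and *Zfp367*, those beside *Slc35d2*, had 0.05 and 0.20, and none of the 4 passed the test.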
